A study of Mus musculus with 3 samples.

Results

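The genes of polyamine synthesis and its control were followed across 3 long-read libraries of mouse CD4+ T cells. The genes are Odc1, Amd1, Srm and Sms (synthesis), Oaz1, Oaz2 and Azin1 (control of Odc1 and of uptake) and Sat1 (breakdown), 8 genes chosen by function. Every transcript model on the strand of one of these genes that shared more splice sites with it than with any other gene was taken as an isoform of it, as was a model without such sites when it overlapped the exons of that gene most. This gave 59 of the 34238 isoforms in the libraries, and these came from 7 of the 8 genes, where the libraries hold isoforms of 6952 genes in all.

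The cells came from spleens and lymph nodes of WT male C57BL/6N mice aged 6 to 10 weeks, with 1 PacBio library for each condition. The naive cells were not stimulated, and the other cells were stimulated for 48 h with antibodies to CD3 and CD28 after labeling with CellTrace Violet, a dye that is diluted at each division. Cells with 0 divisions (undivided cells) and cells with 2 divisions (divided cells) were then sorted by their dye peak, of which the undivided one can hold cells that responded to different degrees, and neither the labels nor the methods tie a library to a number of animals. Each library lists the exon positions of its isoforms on the mouse genome (GRCm38) without read counts, so that a gene has an isoform listed or not, and neither its level nor the usage of an isoform can be read. With no replicate, no test was made, and fewer cells with a transcript cannot be told apart from less of it per cell. File labels place the 2 activated libraries on 1 cell of the sequencer and the naive library on another, so that activation and sequencer cell cannot be told apart, and both activated libraries are set against the same naive library.

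Polyamines (putrescine, spermidine and spermine) are small positively charged molecules that bind nucleic acids and are needed for growth and translation. Ornithine decarboxylase makes putrescine, and spermidine synthase and spermine synthase then add aminopropyl groups that come from S-adenosylmethionine by way of its decarboxylase. Antizymes, which are made by a frameshift of the ribosome when polyamines are plentiful, bind ornithine decarboxylase, send it to the proteasome and block polyamine uptake. Antizyme inhibitor captures antizymes, and spermidine/spermine N1-acetyltransferase starts breakdown and export. T cells are known to raise polyamine synthesis when they are activated. Several of the mRNAs carry elements through which polyamines control their own supply, and these sequences are shown here since the isoforms below carry them.

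The poison exon of Sat1 is an exon that brings a stop codon into the reading frame. Its start, in capitals, follows the intron, its end, in capitals, precedes the next intron, and in the third line the stop codon is in capitals. All 3 are on the minus strand of chrX of GRCm38, at chrX:155215216-155215245, chrX:155215106-155215135 and chrX:155215202-155215231.
Sat1 exon start: tgtcccaatcttcagGTTACAGTCTCTAGC
Sat1 exon end: ATCATGATAAATGAGgtaaggtcctattat
Sat1 stop codon: ggttacagtctcTAGcttcgccatgtacat

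The frameshift sites of the antizymes are shown with the TGA stop codon of the first reading frame in capitals, at chr10:80828280-80828309 for Oaz1 and chr9:65686257-65686286 for Oaz2, both on the plus strand. The 5′ leader of Amd1 holds a short upstream open reading frame, in capitals, at chr10:40302149-40302178 on the minus strand, which is known to lower translation of the enzyme when polyamines are abundant.
Oaz1 frameshift site: cctcggtggtgctccTGAtgtccctcaccc
Oaz2 frameshift site: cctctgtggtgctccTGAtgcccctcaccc
Amd1 upstream reading frame: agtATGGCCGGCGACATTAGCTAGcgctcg

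The naive library held 14 isoforms of the polyamine genes among 10527 (0.133%, exact Clopper-Pearson 95% interval 0.0727 to 0.223). The undivided library held 22 among 12602 (0.175%, 0.109 to 0.264) and the divided library 23 among 11109 (0.207%, 0.131 to 0.311). The intervals cover counting error only, they overlap, and isoforms of 1 gene are not independent. An isoform was listed for 6 of the 8 genes in naive cells, and 7 had one in each of the activated libraries. From naive to undivided cells, 5 of the 7 genes with an isoform in either library had more isoforms (Odc1, Sms, Amd1, Azin1 and Sat1), where 49.1% of all genes did, and 1 had fewer (Oaz2, against 26.6%). The gain of Sms was 1 isoform that started inside the gene. Without isoforms that started inside their gene, the naive, undivided and divided libraries held 14, 17 and 19 isoforms of the polyamine genes. The shares of all genes were not recomputed in this way. From naive cells to cells with 2 divisions, 5 of 7 had more (Odc1, Amd1, Azin1, Oaz1 and Sat1, against 43.9%) and 1 had fewer (Oaz2, against 31.9%). Between the activated libraries, 3 of 7 had more after 2 divisions (Odc1, Azin1 and Oaz1, against 26.5%) and 2 had fewer (Sms and Sat1, against 41.0%), while none of the 7 gained 3 or more isoforms (1.60% of all genes) or went from none to listed (11.5%).

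**Figure D1:**
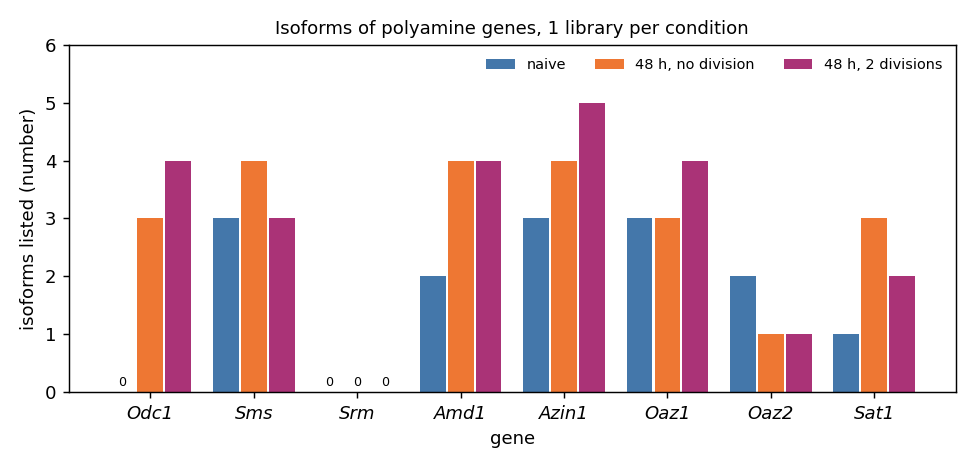
Number of isoforms listed for each gene (horizontal axis) in the naive library, the undivided library and the library of divided cells, both activated for 48 h; each bar is 1 library. Odc1 had 0, 3 and 4 isoforms and Srm had 0 in each.

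Odc1 (ENSMUSG00000011179.8, chr12:17544794-17551505, plus strand), the gene of ornithine decarboxylase and of the committed step of the pathway, had no isoform in naive, 3 in undivided and 4 in divided cells. It was the sole gene of the 8 to go from none to listed, as 26.7% of all genes did between naive and undivided cells and 24.2% between naive and divided cells. It was also the sole one with at least 3 more isoforms than in naive cells, against 7.66% and 6.54% of all genes. That call counts isoforms of Odc1 that started inside the gene, and neither activated library would meet it without them. Each activated library held 1 isoform with all 12 exons of Odc1-201, which encodes the full 461 codons, starting at chr12:17545061 in undivided cells and at chr12:17545095 after 2 divisions. The other isoforms started inside the gene and used annotated introns, with 9 and 7 exons in undivided cells and 11, 10 and 9 after 2 divisions. Of these 5 shorter isoforms, the one with 11 exons kept the start codon. All 7 isoforms ended within 12 nt of each other, at chr12:17551073 to 17551084, 322 to 333 nt after the stop codon. The last 30 bases before that end, with the AATAAA signal in capitals, are at chr12:17551044-17551073 on the plus strand.
Odc1 3′ end: tgtgacccattgtgaaAATAAAgtatcttg

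The pattern of 0, 3 and 4 isoforms was found for 3 other genes, namely Fasn (fatty acid synthase), Il12rb2 (a chain of the interleukin 12 receptor) and Ncapg (a condensin subunit), by the sum of absolute differences in isoform number over the 3 libraries, which was 0 for each.

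Amd1 (ENSMUSG00000075232.5, chr10:40287458-40302186, minus strand), which encodes S-adenosylmethionine decarboxylase, had 2 isoforms in naive, 4 in undivided and 4 in divided cells. The 8 spliced isoforms all had the 8 exons of Amd1-201, encoded 334 codons and started at the same base, the annotated start chr10:40302186. All 8 thus carry the upstream reading frame printed above, which starts 12 nt into the isoform, has 6 codons before its stop and closes 296 nt before the main start codon. Where they differed was at the 3′ end. An end 1862 nt after the stop codon, with AATAAA, was found in all 3 libraries. An end 559 nt after it in undivided cells and 553 nt after 2 divisions, with ATTAAA, was listed in the activated libraries and not in naive cells, and lay 554 or 548 nt from the nearest annotated end. An end 5 nt after the stop codon was found in each library at the annotated end of Amd1-202. It has neither signal in the 50 nt before it, and 15 of the 20 genomic bases after it are A, a composition from which an oligo(dT) primer can start inside an RNA; whether this end arose so was not tested. The remaining isoform of each activated library was a single exon within the 3′ UTR (638 nt in undivided cells, 1552 nt after 2 divisions) that ended at chr10:40287467 as the long isoforms did. The ends are shown with the signal in capitals, at chr10:40288770-40288799 and chr10:40287467-40287496, and the end near the stop codon, without a signal, at chr10:40289324-40289353, all on the minus strand.
Amd1 end of the activated libraries: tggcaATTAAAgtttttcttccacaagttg
Amd1 distal end: gcttcAATAAAagtttgcttaattgtctag
Amd1 end near the stop codon: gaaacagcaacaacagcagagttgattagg

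Srm (ENSMUSG00000006442.10, chr4:148591503-148594993, plus strand), the gene of spermidine synthase, had no isoform in any library. No isoform on either strand touched the gene, so that its absence does not come from the assignment to a neighbor. As the survey lists transcripts without their levels and its depth is unknown, an absent gene is not shown to be unexpressed.

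Sms (ENSMUSG00000071708.11, chrX:157443855-157492287, minus strand), the gene of spermine synthase, had 3 isoforms in naive, 4 in undivided and 3 in divided cells. Its 3′ ends differed between the libraries by the most nucleotides among the 8 genes. In naive cells, 2 of 3 isoforms ran to the distal end at chrX:157443852, 2285 nt after the reference stop codon, and 1 stopped 486 nt after it. In the activated libraries none of the 4 and none of the 3 isoforms reached the distal end, and all ended 436 to 484 nt after the stop codon. The mean terminal exon was 1725 nt in naive, 509 nt in undivided and 504.3 nt in divided cells, a difference in means of -1216 nt and -1221 nt. The proximal ends form 2 clusters, of which the one nearer to the stop codon (437 nt after it) had 1 isoform in each activated library and none in naive cells. Each cluster has its own signal, shown in capitals at chrX:157443852-157443881, chrX:157445658-157445687 and chrX:157445700-157445729 on the minus strand.
Sms distal end: atctgtctctcAATAAAtggatcaatttca
Sms proximal end: agcagtgcttcaATTAAAatgacaaaggag
Sms end nearest the stop codon: atATTAAAatttggtgcttttaaaggtttt

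Sms also kept an intron in every library. One isoform of each (of 3, 4 and 3 that span it) contained the 759-nt intron at chrX:157460417-157461175, which the annotation starts with AT and ends with AC, the ends of a rare class of introns that the minor spliceosome mostly removes. With the intron kept, the reading frame meets a TAA in it, at chrX:157461160, after 225 codons in place of 366, and this stop lies 1142 nt before the last exon junction. A stop codon over 50 nt before the last junction is the usual mark of a transcript that nonsense-mediated decay can remove. The isoforms with the intron kept ended at the distal end in naive cells and at the proximal end in both activated libraries, as all spliced activated isoforms did, whereas of the naive isoforms with the intron removed 1 ended distally and 1 proximally. Where the intron was removed, the models placed it 2 nt away, with the same spliced sequence. Over all protein-coding genes, AT-AC introns, the one of Sms included, were kept in an isoform for 4 of 47 in naive, 2 of 61 in undivided and 3 of 62 in divided cells, against 3.19%, 2.41% and 2.22% of all reference introns spanned. The intron is shown in capitals from its first base (chrX:157461161-157461190) and in lower case up to its last base, with the exon that follows it in capitals (chrX:157460402-157460431), and the stop codon at chrX:157461143-157461172 in capitals, all on the minus strand.
Sms intron start: gtcactatggtagagATATCCTTTACTGTA
Sms intron end: taaactgtttcggacATTGACCAAATGGTA
Sms intron stop codon: tcctttactgtaTAAgaaaacagcttcagt

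Oaz1 (ENSMUSG00000035242.15, chr10:80826656-80829290, plus strand), the gene of the most widely expressed antizyme, had 3 isoforms in naive, 3 in undivided and 4 in divided cells. All 10 held the frameshift site and started within 9 nt of each other, at chr10:80826678 to 80826686. The spliced isoforms encode 227 codons once the ribosome moves 1 base forward at the TGA. The 10 isoforms ended at 3 places: 104 to 106 nt after the stop codon (0, 1 and 1 isoforms in naive, undivided and divided cells), 165 to 170 nt after it (2, 1 and 1) and 280 to 284 nt after it (1, 1 and 2). The end nearest the stop codon was listed in the activated libraries and not in naive cells; its AATAAA lies 38 or 40 nt upstream, farther than the 17 to 22 nt of the other ends. The mean terminal exon of the spliced isoforms was 356.5 nt in naive, 317 nt in undivided and 317.7 nt in divided cells, which is below the difference of 100 nt used to call a change. The last intron, of 74 nt at chr10:80828797-80828870, was kept in 1 of 3 naive isoforms, 0 of 3 undivided and 1 of 4 after 2 divisions. The reading frame then ends after 222 codons at a TGA in the last exon (chr10:80828913), with no junction downstream of it.

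**Figure D2:**
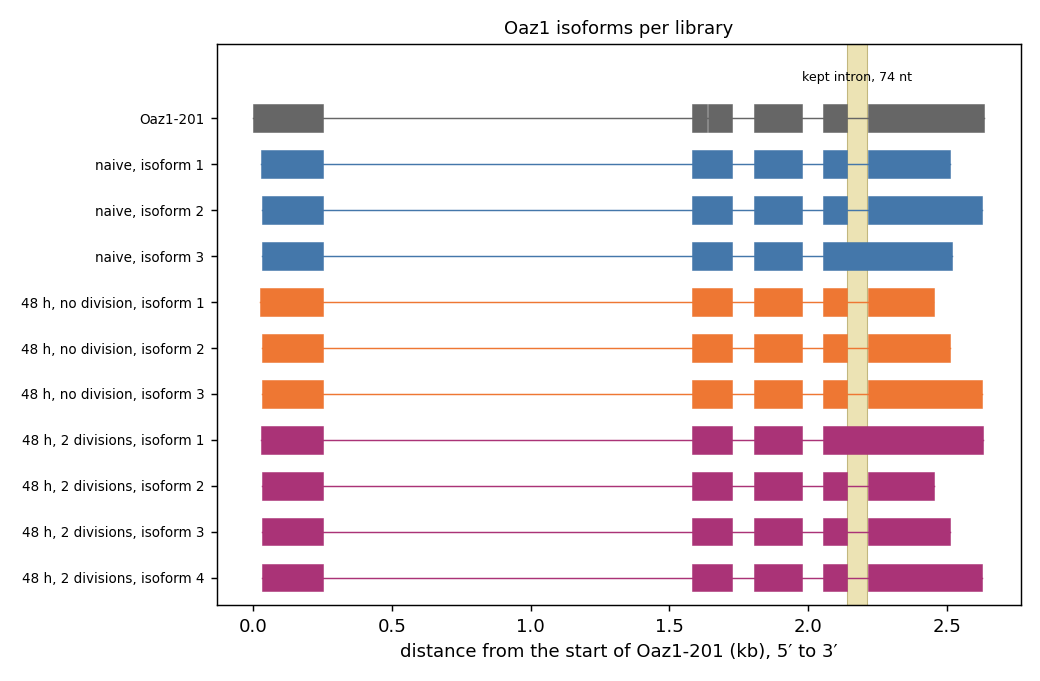
Exons (boxes) and introns (lines) of Oaz1-201 of the annotation (gray) and of each isoform in the naive, undivided and divided libraries, by distance from the annotated start in kb. The band marks the 74-nt last intron, which is filled in 1 naive isoform and 1 isoform after 2 divisions, and the right edges show the 3 groups of ends.

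Oaz2 (ENSMUSG00000040652.16, chr9:65668001-65690300, plus strand), the second antizyme, had 2 naive isoforms and 1 in each activated library, and was the sole gene of the 8 with fewer isoforms in both activated libraries than in naive cells. Its 4 isoforms started at the same base, chr9:65676579, and ended within 4 nt of each other, 1071 to 1074 nt after the stop codon. The isoform with 5 exons, present in each library, encodes 189 codons across the frameshift. The other naive isoform skipped an 86-nt exon (chr9:65688821-65688906) by a junction that is not annotated, which shifts the frame and ends it after 129 codons, 37 nt into the last exon.

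Azin1 (ENSMUSG00000037458.15, chr15:38487427-38519266, minus strand), which encodes antizyme inhibitor, had 3 isoforms in naive, 4 in undivided and 5 in divided cells, with 12 in all the most of the 8 genes. All 12 isoforms started within 4 nt of each other and kept the start codon. An added exon in the 5′ leader, 160 nt at chr15:38507187-38507346, was in 0 of 3 naive isoforms, 2 of 4 undivided and 2 of 5 after 2 divisions. It is an exon of the annotated Azin1-203. The exon lengthens the leader from 587 to 590 nt to 747 to 750 nt and raises the number of ATG triplets before the start codon from 3 to 6, without a change to the 448 codons of the protein. In each activated library it was joined to the long 3′ UTR in 1 isoform and to a short one in the other. The intron that follows the exon starts with GC, a less common donor, as the end of the exon shows, with the exon in capitals at chr15:38507332-38507361 and chr15:38507172-38507201 on the minus strand.
Azin1 exon start: gtgttctacttccagGGAGGTCTTCACTTC
Azin1 exon end: CAGGTGTGGACCAAGgcaagtgcacagctg

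Of the other variants of Azin1, 1 naive isoform used an acceptor 3 nt away from that of the reference, which removes 1 codon (447 codons). In undivided cells 1 isoform extended an exon by 152 nt (chr15:38497399-38497550), which ends the frame after 154 codons, 922 nt before the last junction.

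**Figure D3:**
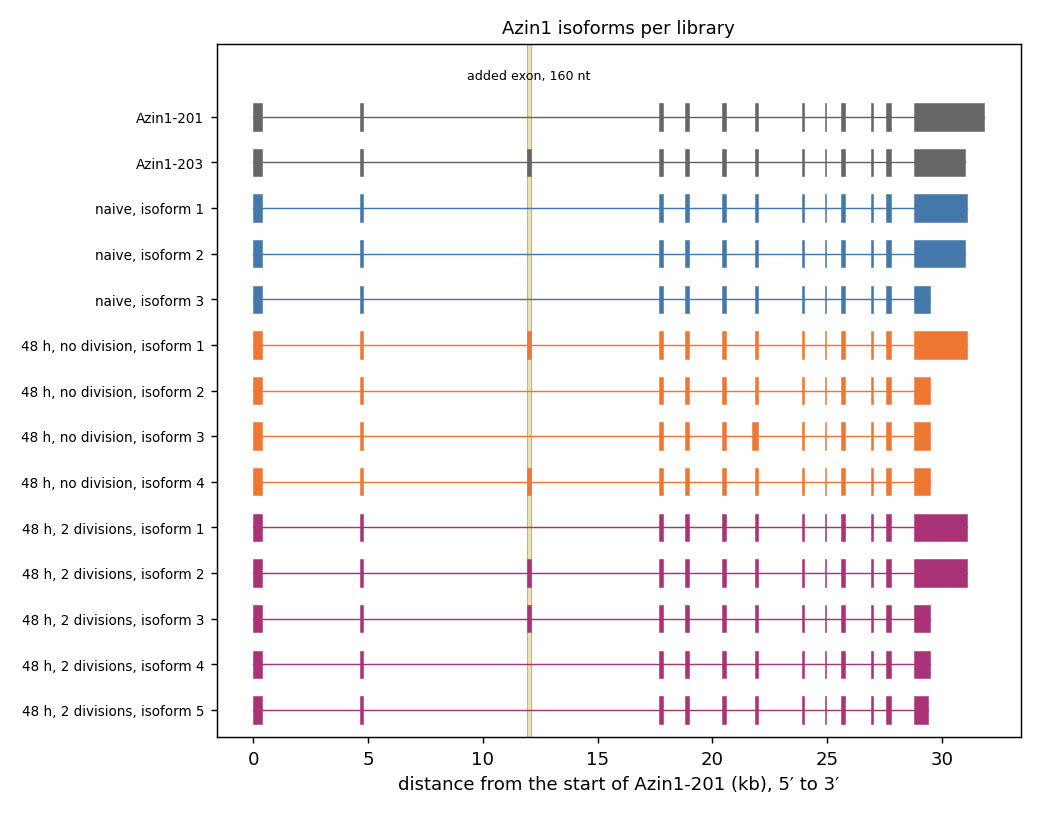
Exons (boxes) and introns (lines) of 2 annotated Azin1 transcripts (gray) and of each isoform in the naive, undivided and divided libraries, by distance from the annotated start in kb. The band marks the 160-nt exon, present in 2 undivided isoforms and 2 after 2 divisions and in none of the 3 naive ones; the last box differs in length with the 3′ end.

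The ends of Azin1 fell into a proximal and a distal region. In naive cells, 1 of 3 isoforms ended 565 nt after the reference stop codon and the others 2123 and 2176 nt after it. In undivided cells, 3 of 4 ended 565 to 566 nt after it and 1 at 2176 nt. After 2 divisions, 3 of 5 ended at 500 to 566 nt and 2 at 2176 to 2177 nt. The mean terminal exon was 1733 nt in naive, 1080 nt in undivided and 1309 nt in divided cells. The proximal ends have AATAAA and lie 1554 to 1613 nt from the nearest annotated end, whereas no AATAAA or ATTAAA was found in the 50 nt before the distal ends. The proximal end shared by the 3 libraries is at chr15:38489795-38489824 and the distal one at chr15:38488185-38488214, minus strand, with the signal in capitals where there is one.
Azin1 proximal end: atgattgcAATAAAactttgtgtagatctt
Azin1 distal end: tcatgaaatagacgtgaaattttatgaatt

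Sat1 (ENSMUSG00000025283.15, chrX:155213132-155216449, minus strand), which encodes the acetyltransferase that starts polyamine breakdown, had 1 isoform in naive, 3 in undivided and 2 in divided cells. The 6-exon Sat1-201 form, with 171 codons, was listed in every library. The poison exon, 110 nt at chrX:155215121-155215230, was in 0 of 1 isoform that spans it in naive, 1 of 2 in undivided and 1 of 2 in divided cells. Inclusion of this exon is known to respond to polyamines, and the annotated Sat1-207 that holds it is classed as a target of nonsense-mediated decay. With it, the frame closes at the TAG printed above (chrX:155215219) after 71 codons, 239 nt before the last junction. The exon also holds 7 ATG triplets. The remaining undivided isoform had 3 exons and started inside the gene, at chrX:155214117, downstream of the poison exon. All 6 isoforms ended at chrX:155213141 to 155213142, 355 to 356 nt after the stop codon of Sat1-201. The Sat1 isoforms thus differed in their exons and starts and shared 1 end. With 1 naive isoform, the absence of the exon there rests on a single model. The pattern of 1, 3 and 2 isoforms was common, found for 83 other genes, of which Actl6a, Ammecr1l and Ap2a2 come first by symbol.

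**Figure D4:**
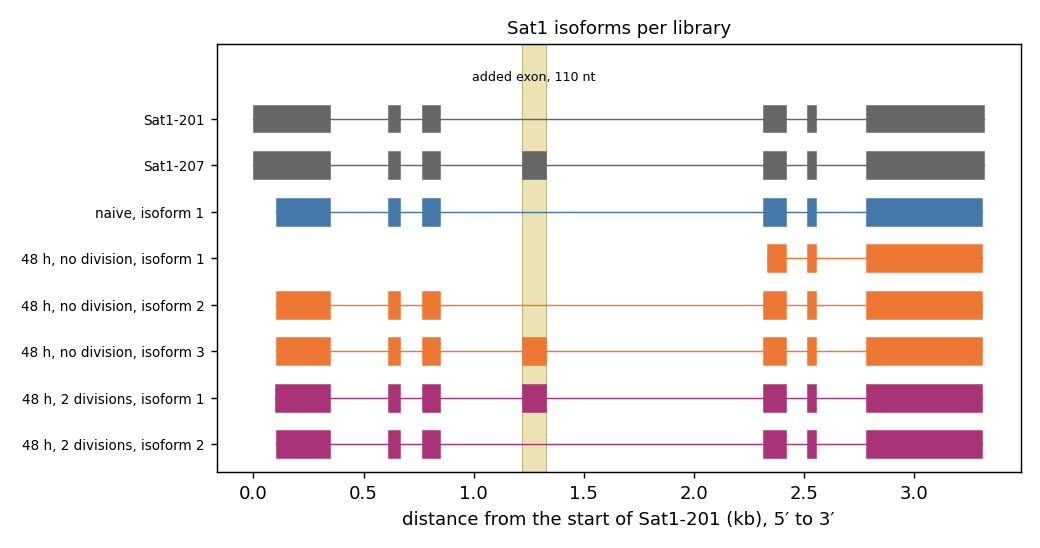
Exons (boxes) and introns (lines) of 2 annotated Sat1 transcripts (gray) and of each isoform in the naive, undivided and divided libraries, by distance from the annotated start in kb. The band marks the 110-nt poison exon, present in 1 undivided isoform and 1 isoform after 2 divisions and not in the single naive isoform.

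The exons added in Sat1 and Azin1 followed the same pattern, present in both activated libraries and not in naive cells. Over all genes, 47 of 431 such exons that were spanned in each library did so (10.9%), while 18.1% were in the naive library alone. Among the spliced isoforms of the 8 genes, 0 of 14 had an added exon in naive, 3 of 21 in undivided (14.3%, 3.05 to 36.3) and 3 of 22 in divided cells (13.6%, 2.91 to 34.9). For all protein-coding genes these shares were 3.82%, 3.52% and 3.35%. The exact interval for 0 of 14 reaches 23.2% and, like the others, covers counting error within 1 library, so that no difference between conditions can be read from these shares. A skipped exon was found in 1 of 14, 0 of 21 and 0 of 22 isoforms (13.2%, 12.6% and 11.1% over all protein-coding genes) and a kept intron in 2, 1 and 2 (16.9%, 11.1% and 10.2% over all). Isoforms whose stop codon lies over 50 nt before the last junction numbered 1 of 14 in naive (Sms), 3 of 22 in undivided (Sms, Azin1 and Sat1) and 2 of 23 in divided cells (Sms and Sat1), against 17.5%, 13.8% and 12.1% of all isoforms of protein-coding genes.

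Terminal exons that were shorter on average in the activated libraries were found for 3 synthesis and control genes. The mean terminal exon was shorter by over 100 nt than in naive cells for Sms, Amd1 and Azin1, 3 of 6 terminal exons shared with undivided cells, where 13.1% of all shared terminal exons were shorter and 5.71% longer (none of the 6). For cells with 2 divisions the same 3 genes were shorter, 3 of 7 terminal exons, against 13.7% of all. One of the 7 was longer, against 4.80% of all, and this was the kept-intron isoform of Oaz1 (464 nt in naive cells, 578 nt after 2 divisions, 1 isoform each). The difference for Amd1 was the least, -124.8 nt and -126.8 nt. Its shortest and longest terminal exons were 146 and 2003 nt in every library, and the lower mean came from an added end between them. Without the A-rich end next to the stop codon the difference was -651.5 nt and -654.5 nt, which rests on 1 naive isoform. Between the activated libraries, none of 7 was shorter (8.40% of all) and Azin1 was longer by 228.5 nt (6.92% of all). These means weigh each listed isoform alike and do not give the use of an end. The shares of all terminal exons include those with 1 isoform in a library, while Sms, Amd1 and Azin1 had 2 to 5 spliced isoforms in each. No share was computed for terminal exons with as many isoforms.

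**Figure D5:**
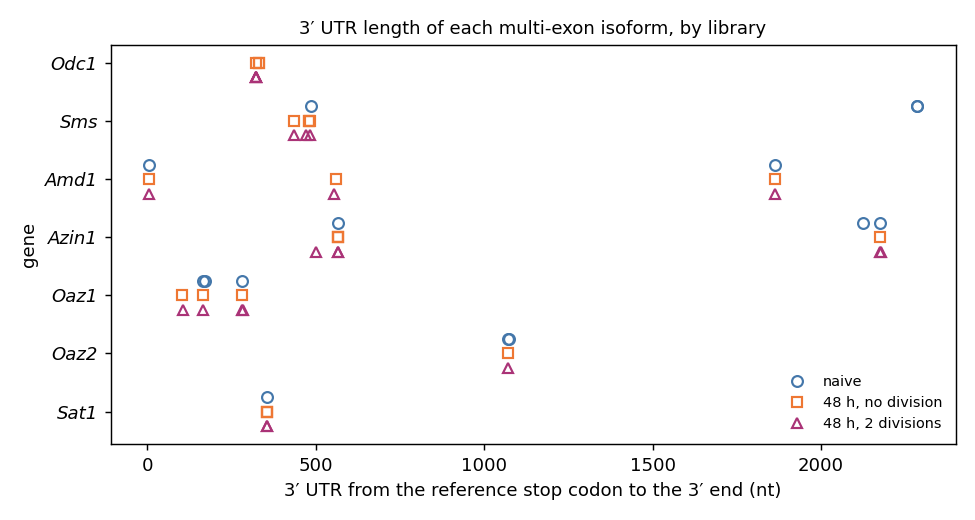
Length of the 3′ UTR in nt, from the stop codon of the reference transcript to the 3′ end, for each spliced isoform (points; nearly equal lengths overlap) of 7 genes in the naive, undivided and divided libraries. The 2 naive Sms isoforms near 2285 nt have no counterpart in the activated libraries, while Odc1, Oaz2 and Sat1 each had 1 end.

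Ends over 100 nt apart on 1 terminal exon were listed for 4 of the genes in naive cells (Sms, Amd1, Azin1 and Oaz1) and for 3 in each activated library (Amd1, Azin1 and Oaz1), since no Sms isoform with the distal end was listed there. Of the terminal exons with at least 2 isoforms, these made up 4 of 5, 3 of 6 and 3 of 6, against 39.9%, 41.9% and 42.3% over all terminal exons. The ends of the 8 genes carried AATAAA or ATTAAA in the preceding 50 nt in 11 of 14, 20 of 22 and 20 of 23 isoforms, against 61.6%, 67.2% and 67.2% of all ends. An A-rich stretch (at least 12 A in 20 nt) followed 1 end in each library (the one of Amd1), against 32.0%, 22.1% and 23.1% of all ends. Without that end, 3 genes had ends over 100 nt apart in each library, since Amd1 then had 1 end in naive cells.

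Of the spliced isoforms, 10 of 14 in naive (71.4%), 16 of 21 in undivided (76.2%) and 17 of 22 in divided cells (77.3%) had the introns of an annotated transcript, against 61.6%, 62.7% and 64.1% for all protein-coding genes. The start codon was kept in 14 of 14, 17 of 22 and 20 of 23 isoforms, against 86.0%, 82.0% and 81.1% over all protein-coding genes; those without it were 2 truncated isoforms of Odc1 in each activated library, the single-exon isoforms of Amd1, and 1 truncated isoform each of Sms and Sat1 in undivided cells. None of 9 copies of these genes, the coding copy Amd2 and 8 processed pseudogenes, had an isoform in any library.

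A list of 27 other genes of polyamine metabolism or linked to it was also counted. It includes the regulator Myc, which is also among the activation genes below. Of the list, 11 were listed in naive, 16 in undivided and 15 in divided cells, with 16, 35 and 31 isoforms. The libraries as a whole went from 4741 to 5569 and 5152 genes and from 10527 to 12602 and 11109 isoforms. Of these 27 genes, 11 were listed in all 3 libraries, 6 in one or both activated libraries alone, none in naive cells alone and 10 in none. From naive to undivided cells, 11 of 16 with an isoform in either library had more isoforms (49.1% of all genes) and 1 had fewer (26.6%), and 5 went from none to listed (26.7%). From naive to divided cells, 10 of 15 had more (43.9% of all genes), 4 went from none to listed (24.2%) and 1 had fewer, against 31.9% (the same gene in both, Mat2b, a subunit of the enzyme that makes S-adenosylmethionine, with 4, 2 and 2). Slc3a2, the heavy chain of amino acid transporters that has also been tied to polyamine movement, had 1, 7 and 4 isoforms in naive, undivided and divided cells. Eif5a, the translation factor that carries the spermidine-derived residue hypusine, had 2, 5 and 3, and Dohh, the enzyme of the last step of hypusine synthesis, had 0, 1 and 2. Of the genes that recycle the methylthioadenosine left by spermidine and spermine synthesis, Mtap had 1, 4 and 2 isoforms and Enoph1 had 1, 2 and 3. Mat2a, which makes S-adenosylmethionine, had 1, 2 and 3. Myc, a known activator of Odc1 transcription, had 1, 3 and 3, and Smox, the spermine oxidase, had 0, 1 and 2. Arg1 and Arg2, which supply ornithine, were listed in no library. Of the arginine and ornithine genes of the list, Oat alone was listed, with 2 isoforms in each library.

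Markers of the cells were as labeled in part. Of 8 CD4 T cell genes, 8 were listed in the naive library and 6 in either activated one, where Trac and Cd3g had no isoform, and Cd4 had 4, 5 and 4 isoforms. Of 6 activation genes, 3 had a naive isoform and 6 had one in either activated library, with 11, 50 and 33 isoforms, and Il2ra, the interleukin 2 receptor chain of activated cells, had 0, 10 and 6. Cd69, of the same 6 genes, had 7, 10 and 6, so fewer in divided than in naive cells. B cell genes were listed in every library, 5 of 6 in the naive one and 2 of 6 in either activated one (20, 6 and 5 isoforms); Ms4a1 had 2 isoforms in naive cells and none after activation, and Cd79a had none in any library. Myeloid genes were listed 1, 0 and 0 times of 4, and CD8 T and NK cell genes 1, 2 and 1 times of 4. By the methods, naive CD4+ T cells were purified with an EasySep isolation kit, a step meant to remove B cells; the part of B cells in the isoforms of the naive library was not tested.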

How the data were processed

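Per the paper, ccs gave consensus reads, lima trimmed primers, isoseq3 clustered reads that had a poly(A) tail, pbmm2 mapped the clusters, and isoseq3 and SQANTI3 collapsed and annotated the isoforms. Besides these, minimap2, Subread, mm10 and GRCm38 are named in the submitters' processing notes. The deposited values are exon start and end positions of isoforms, with no counts, so depth is unknown and numbers of isoforms stand in for it.

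Positions were compared with the GRCm38 sequence and GENCODE M21 (the paper names a later release). Ends within 24 nt were merged. An intron chain was annotated when all introns equaled those of 1 transcript, after annotated gaps under 10 nt (frameshifts) were closed and shifted introns with the same spliced sequence taken as equal. The reference transcript of a member is the one numbered 201 and of other genes the one with the longest coding sequence. Added, skipped and kept parts are relative to it. Distances from the stop codon to a 3′ end are counted from the reference stop codon, also for isoforms whose own frame stops elsewhere. Shares have exact 95% Clopper-Pearson intervals. The genes to name were all 8 members, the 6 other pathway genes with the largest difference from naive, and for likeness the 3 nearest genes. Myc, Smox, Mat2b, Arg1, Arg2, Oat and single marker genes were added after their values were seen. Members and lists were chosen with earlier results of these data known. Assignment was tested on annotated transcripts shortened at their start, which leaves out models without splice sites or with shifted introns. End merging was run on simulated ends placed closer than the merging distance and far from other groups, so this check could not fail. Python 3.11.15, pysam, scipy and matplotlib were used.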

Additional observations from a re-analysis of the deposited data

How the results depend on the processing

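Of 89 values recomputed under other settings for the number of genes listed, isoforms, 3′ ends, genes with tandem ends, spliced isoforms with annotated introns, exon changes and shorter terminal exons, 85 stayed close (a share within the exact 95% interval of the reported share, a count within 1.5 times of the reported count) and 4 moved. All 4 concern the share of isoforms with annotated introns. With annotated frameshift gaps kept as introns and exact positions asked for (chosen after seeing the data), the share was 35.7% in naive, 47.6% in undivided and 50% in divided cells, since the Sms, Oaz1 and Oaz2 isoforms then match no transcript. With a consecutive part of an annotated chain allowed, it was 95.5% in divided cells. Under a difference of over 200 nt, also chosen after seeing the data, Amd1 is not among the genes with a shorter terminal exon (2 genes in place of 3). Without A-rich ends, 3 genes in place of 4 had tandem ends in naive cells. Both changes were counted as close. The limits are wide for so few genes and isoforms, so that staying close is a weak check. No paired analysis was possible because each condition has 1 library, and for the same reason no replicate could be left out. Each statement on presence rests on 1 to 5 isoforms per gene and library.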
